A study of Mus musculus with 21 samples.

Results

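The genes described here are 8 complement components and receptors that macrophages can make: the chains of C1q (C1qa, C1qb and C1qc), C3, factor B (Cfb), properdin (Cfp), and the receptors for C3a (C3ar1) and C5a (C5ar1). They were taken as a list by name from the 23250 genes of the deposited table, with earlier results of these data known. All 8 were in the table and all 8 passed the filter on low counts, which left 13468 genes to test. RNA had been sequenced from bone-marrow-derived macrophages of C57BL/6J mice, grown for 7 days in medium with 2.5% supernatant of cells that secrete GM-CSF, a cytokine under which marrow cells mature into macrophage-like cells. According to the series text every group lacked the mannose receptor (MR, encoded by Mrc1), the untreated and isotype groups included, and the study addressed what soluble MR does to such cells. The 7 groups held 3 libraries each: untreated MR-deficient cells at 0 h, MR-deficient cells given FcMR for 4, 12 or 24 h, and MR-deficient cells given the isotype control for the same times. FcMR joins the outer part of MR to a human IgG1 Fc piece, made as a recombinant protein, and the make-up of the isotype control is not described. Cells from a marrow culture with GM-CSF are a mixture that resembles both macrophages and dendritic cells, so the groups model neither cell type in pure form. The labels do not say whether the 3 libraries of a group came from separate mice or cultures, so p-values measure the spread between these libraries, which may be technical.

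Complement is a set of plasma and cell-surface proteins that tag particles for uptake, recruit leukocytes and lyse membranes. The classical pathway starts when C1q binds antibody or other ligands, while the alternative pathway amplifies any deposited C3b through a convertase that contains factor B and is stabilised by properdin. Cleavage of C3 and C5 releases the small peptides C3a and C5a, which act on their G-protein-coupled receptors on myeloid cells. Most plasma C3 and factor B comes from the liver, but macrophages are a main source of C1q and make C3, factor B and properdin locally, and factor B and C3 are well known to be induced in macrophages by inflammatory stimuli.

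Library totals ran from 5532225 to 66729533 counts, so that 3 counts stood for 0.0454 to 0.559 CPM (each count as its share of the library, per TMM-scaled total). Such limits cover counting error only. Mrc1 had 0 to 11 counts per library. The 8 macrophage markers were present in all 21 libraries with a summed level of 20538 to 35367 CPM, of which Lyz2 alone held 16643 to 30533. That sum was lower in FcMR than in isotype libraries at 24 h (25903 to 27942 against 31179 to 35367 CPM). It overlapped at 4 h (28755 to 29182 against 27618 to 31097) and at 12 h (20538 to 23710 against 23027 to 25161). Markers of stromal, liver, B and T or NK cells summed to at most 4.39, 7.94, 5.98 and 2.32 CPM. The summed level of the 7 dendritic cell markers, all 7 of them detected although Cd209a passed 3 counts in only 9 libraries, was higher in FcMR than in isotype libraries at 4 h (10381 to 13013 against 6333 to 7838 CPM), at 12 h (9005 to 10219 against 5430 to 6172) and at 24 h (4591 to 5046 against 2623 to 2822). The chemokine gene Ccl22 made up 22.3 to 73.0% of that sum in the treated libraries, and without it the sums overlapped at 4 h (3161 to 3701 against 2210 to 3442 CPM), 12 h (2494 to 3500 against 2875 to 3104) and 24 h (2129 to 2690 against 2013 to 2193). Some single markers besides Ccl22 still lay apart, in both directions. Ccr7 was higher with FcMR at 4 h and 24 h (639 to 702 against 369 to 429 CPM at 24 h). Zbtb46 was higher at 12 h and 24 h (27.2 to 29.3 against 17.3 to 18.1 at 24 h). Itgax was higher at 4 h but lower at 12 h and 24 h (853 to 893 against 967 to 1081 at 24 h), and Flt3 was lower at 12 h. The 9 neutrophil and precursor markers summed to 1402 to 1632 CPM in untreated cells and to 183 to 228 CPM at 24 h with either protein. In these bulk libraries fewer cells of a type and less RNA per cell cannot be told apart, and the part of these marker shifts in the results was not tested. A GC tilt was computed for each library, as the mean log2 deviation of the 10% of genes richest in GC minus that of the 10% poorest. In groups whose tilts spanned over 1 log2, the library farthest from the group's median was taken as standing apart. These were isotype 4 h replicate 3 (0.64 against -0.83 and -1.59), FcMR 12 h replicate 1 (-0.73 against 0.70 and 0.80) and FcMR 24 h replicate 2 (-1.26 against -0.35 and 0.41). In the FcMR 24 h group replicate 3 lay nearly as far from the median on the other side. Values without these 3 libraries are given beside the C1q results and where a call changed. By the running numbers of the titles, isotype 4 h replicate 3 and FcMR 12 h replicate 1 stand in each other's place, so an exchange of labels was considered. Their Cfb levels were those of the groups on their labels: 324 CPM in isotype 4 h replicate 3 beside 309 and 279 in its group, and 3113 CPM in FcMR 12 h replicate 1 beside 2915 and 3163. The labels were kept.

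With FcMR the 8 genes did not move alike. Cfb was higher than with isotype at 4, 12 and 24 h and C3 at 4 and 24 h, whereas C1qa, C1qb, C1qc, C3ar1 and C5ar1 were lower at 24 h. At 4 h, 2 of the 8 were called, both higher, beside 17.7% of all genes tested (8.62% higher, 9.13% lower; the balance of calls over all genes moved from 48.6% to 62.7% higher with RLE factors). A call is an adjusted p under 0.05 in edgeR's quasi-likelihood test with Benjamini-Hochberg adjustment over all genes. At 12 h, 3 were called, 1 higher and 2 lower, beside 16.1% of all genes (8.61% higher, 7.49% lower). At 24 h, 7 were called, 2 higher and 5 lower, beside 20.9% of all genes (11.4% higher, 9.44% lower). The FcMR and isotype libraries did not overlap for 4, 5 and 8 of the 8 genes at these times, beside 29.7%, 35.4% and 34.4% of all genes. Since the gene lists were chosen with earlier results known, shares of all genes beside such counts are a description and not a test of the list. The median log2 fold change of the 8 was 0.21, -0.73 and -1.49 at the successive times, while that of all genes tested was -0.07, -0.02 and 0.01.

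**Figure D1:**
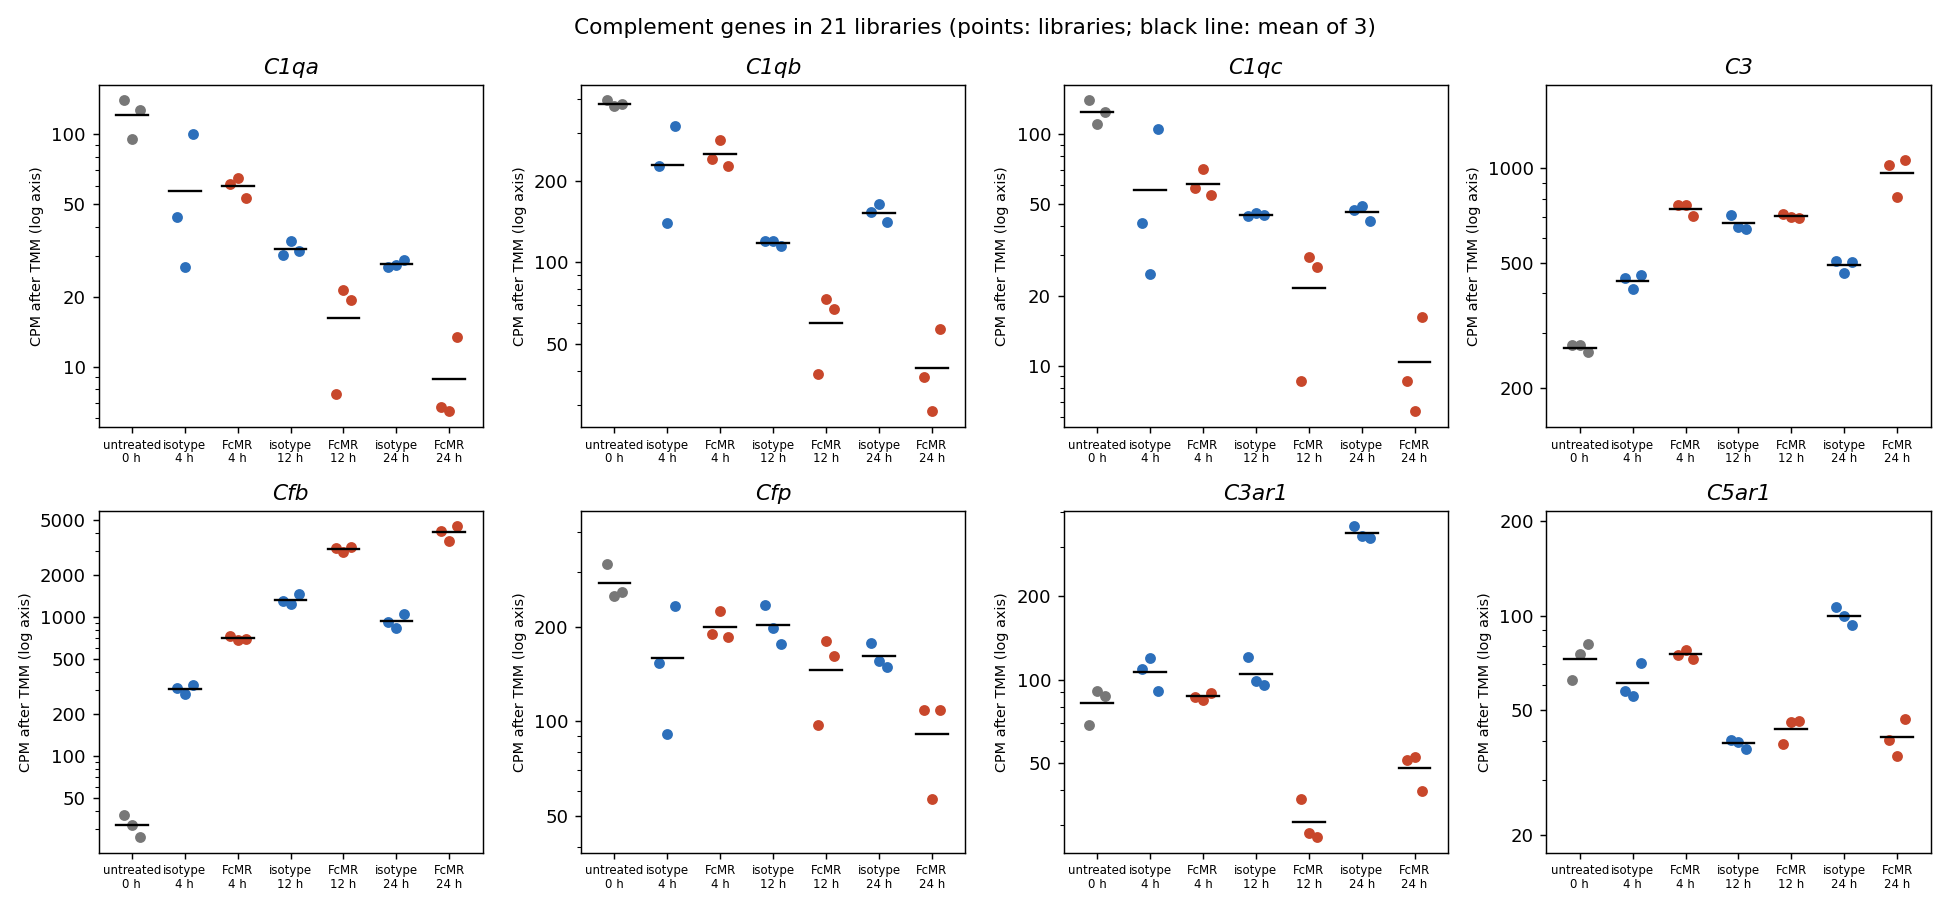
Level of each of the 8 genes (CPM after TMM scaling, log axis with its own range per panel) in the 21 libraries, by group along the x axis. Points are libraries and the black line is the mean of 3. Cfb is between 26.1 and 37.9 CPM in untreated libraries and between 3493 and 4485 CPM in the FcMR 24 h libraries, and the C1q panels run the other way.

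The C1q chains are the recognition unit of the classical pathway. Their genes lie side by side on chromosome 4 in the order C1qb (136880129 to 136886187), C1qc (136889804 to 136893065) and C1qa (136895917 to 136898803), all on the minus strand of GRCm38. The run spans 18675 bases with gaps of 3616 and 2851 bases and no other annotated gene inside. All were highest in untreated cells and lowest in FcMR 24 h cells. C1qa was at 139, 95.5 and 126 CPM in the untreated libraries (replicates 1 to 3), and at 6.68, 6.43 and 13.4 CPM in the FcMR 24 h libraries, against 26.8, 27.3 and 28.7 CPM with isotype at 24 h. The highest FcMR 24 h library thus lay below the lowest isotype library of that time, and the isotype libraries lay below every untreated library. FcMR 24 h replicate 3, the library of that group with the highest GC tilt, held the highest level of each chain. C1qa was lower with FcMR at 24 h by a log2 difference of -1.68 (SE 0.418 and edgeR adjusted p = 0.00696).

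C1qb had the highest level per kilobase of exon of the C1q genes in every library. Length was that of all annotated exons of a gene merged (1040 bases for C1qa, 1088 for C1qb and 1931 for C1qc), and the shares depend on it. C1qb held 63.7 to 76.9% of the summed CPM per kilobase, against 13.02 to 23.6% for C1qa and 7.73 to 14.8% for C1qc. At 24 h C1qb was at 154, 163 and 141 CPM with isotype and at 37.8, 28.3 and 56.7 CPM with FcMR. The log2 fold change was -1.91 (SE 0.273 and edgeR adjusted p = 4.87e-05). C1qc was at 47.2, 49.1 and 42.2 CPM with isotype and at 8.64, 6.36 and 16.2 CPM with FcMR at 24 h, a log2 difference of -2.20 (SE 0.469 and edgeR adjusted p = 0.00212). Without FcMR 24 h replicate 2 the 24 h differences were -1.47 for C1qa, -1.69 for C1qb and -1.90 for C1qc, all called (edgeR adjusted p = 0.0441, 0.000414 and 0.0166, where 17 alternatives reached at most 0.0441, 0.00138 and 0.0166). For each chain the FcMR 24 h libraries overlapped with those of FcMR 12 h and lay below all others. Over the 21 libraries the log2 levels of C1qa correlated with those of C1qc (Pearson's r = 0.975) and C1qb (r = 0.974), as a description of libraries that share their groups, depth and GC tilt.

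At 12 h the FcMR libraries also lay below the isotype libraries for each chain, but the size depended on 1 library. C1qb was at 119.7, 119.6 and 115 CPM with isotype and at 39.0, 73.6 and 67.3 CPM with FcMR, a log2 difference of -0.98 (SE 0.265 and edgeR adjusted p = 0.0152). The lowest of these was FcMR 12 h replicate 1, and without it the C1qb difference was -0.75 with an edgeR adjusted p of 0.0711, the highest over 17 alternatives (the lowest was 4.13e-06). C1qa was at 30.2, 34.8 and 31.4 CPM with isotype and at 7.63, 21.4 and 19.4 CPM with FcMR (log2 fold change -0.99, SE 0.392, edgeR adjusted p = 0.104). C1qc was at 44.1, 45.6 and 44.9 CPM with isotype and at 8.59, 29.5 and 26.7 CPM with FcMR (log2 fold change -1.05, SE 0.437, edgeR adjusted p = 0.122). Without FcMR 12 h replicate 1 these were -0.66 and -0.68 (edgeR adjusted p = 0.334 and 0.367, the highest over 17 alternatives, whose lowest were 2.67e-05 and 0.00347). With a correction for GC content all were called at 12 h, at -0.75 for C1qa, -0.79 for C1qb and -0.94 for C1qc. Each chain was also called lower at 12 h without the 3 libraries whose GC tilt stands apart, which include FcMR 12 h replicate 1. That choice was made after seeing the data.

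At 4 h no difference in C1q was called and the groups overlapped. C1qa was at 43.8, 26.7 and 99.5 CPM with isotype and at 60.8, 64.4 and 53.3 CPM with FcMR. The isotype libraries surrounded the FcMR libraries, and their order was that of their GC tilt. Log2 fold changes were 0.06 (SE 0.381) for C1qa, 0.13 (SE 0.260) for C1qb and 0.09 (SE 0.429) for C1qc, with edgeR adjusted p-values of 0.944, 0.803 and 0.927. Without the 3 libraries whose GC tilt stands apart, a choice made after seeing the data, they were 0.75, 0.44 and 0.88 with edgeR adjusted p-values of 0.011, 0.0469 and 0.00282, and without isotype 4 h replicate 2 they were -0.225, -0.085 and -0.22. Over 17 alternatives the edgeR or DESeq2 adjusted p-values reached 0.997, 0.968 and 0.992. With the GC correction they were 0.14, 0.07 and 0.12 and were not called. No direction for C1q at 4 h can therefore be given.

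The C1q transcripts are rich in GC: C1qa at 59.5%, C1qb at 57.4% and C1qc at 56.6% stood at percentiles 95.8, 88.8 and 85.3 of the genes tested. The library with the lowest GC tilt of its group held the lowest C1qa level in 7 of 7 groups, and the lowest C1qb and C1qc level in 5 and 6. At 24 h the FcMR difference with the GC correction was -1.42 for C1qa, -1.73 for C1qb and -2.08 for C1qc, all called. Each was smaller in size than without it (-1.68, -1.91 and -2.20), and for C1qa it was the smallest of 17 alternatives.

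**Figure D2:**
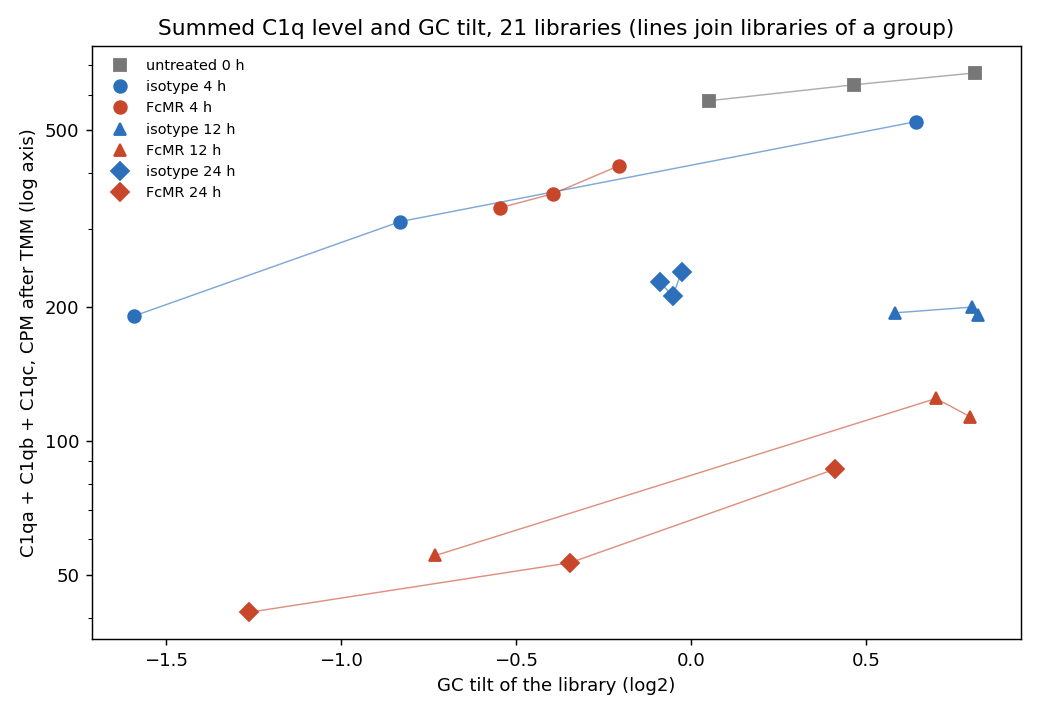
Summed level of C1qa, C1qb and C1qc (CPM after TMM scaling, log axis) against the GC tilt of each library (log2), with thin lines joining the 3 libraries of a group. Within untreated, isotype 4 h, FcMR 4 h and FcMR 24 h libraries the sum is higher where the tilt is higher, and FcMR 24 h replicate 3, with a tilt of 0.41, still lies below every isotype 24 h library.

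Isotype-treated cells also held less C1q than untreated cells, with the isotype libraries of these comparisons being the same as those used against FcMR. At 24 h the log2 fold change of isotype against untreated was -2.12 (SE 0.396) for C1qa, -1.33 (SE 0.264) for C1qb and -1.43 (SE 0.434) for C1qc, with edgeR adjusted p-values of 0.000301, 0.000538 and 0.0128. At 12 h these were -1.91, -1.70 and -1.47 and all were called. At 4 h C1qa (-1.07, edgeR adjusted p = 0.0359) and C1qb (-0.75, 0.0326) were called and C1qc (-1.11, 0.0529) was not. The 4 h call was lost for C1qa in 4 and for C1qb in 5 of the 6 fits that left out 1 library, with edgeR adjusted p-values up to 0.124 and 0.127. Without isotype 4 h replicate 3 the differences were larger, at -1.76 for C1qa, -1.07 for C1qb and -1.91 for C1qc, and all were called (edgeR adjusted p = 0.000623, 0.00374 and 0.00108, with 0.173 the highest for C1qc over 17 alternatives). The C1qc call at 24 h did not hold without isotype 24 h replicate 3 (-1.33, 0.0505). Time in culture and the isotype protein cannot be told apart in this comparison.

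The sequences ahead of the C1qb and C1qc genes are shown because these genes moved together; they come from RefSeq on GRCm38.p6, minus strand, and cover the bases of its promoter window that lie outside the annotated gene. In capitals are matches to a loose form of the kappaB motif of NF-kappaB (GGG and CC with 5 free bases between them) or to GAGGAAG (the core of a PU.1 site), each searched on both strands. A match is only a run of letters and not a measured binding site. Of the 8 genes 6 had a promoter entry, and C1qa and Cfb were the others.
C1qb, chr4:136886201-136886450: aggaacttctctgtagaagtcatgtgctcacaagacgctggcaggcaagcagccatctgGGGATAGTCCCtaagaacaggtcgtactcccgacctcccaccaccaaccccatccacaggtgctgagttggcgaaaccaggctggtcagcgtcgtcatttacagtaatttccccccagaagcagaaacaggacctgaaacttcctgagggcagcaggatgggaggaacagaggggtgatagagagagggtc
C1qc, chr4:136893066-136893164: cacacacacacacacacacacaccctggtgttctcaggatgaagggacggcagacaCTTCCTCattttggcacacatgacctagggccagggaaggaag
In C1qb the capitals are the kappaB form read on both strands, where the matches overlap, and in C1qc they are GAGGAAG on the opposite strand. Among 32851 promoter windows of 250 bases, 45.8% held the kappaB form and 10.6% held GAGGAAG. The C1qc window was only 99 bases long, so its contents cannot be set against those shares.

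C3 is the central component on which all activation pathways converge, and it lies on chromosome 17 (57203970 to 57228136, minus strand). FcMR libraries held more of it than isotype libraries at 4 h and at 24 h, but were not called different at 12 h. At 4 h C3 was at 446, 412 and 458 CPM with isotype and at 763, 762 and 705 CPM with FcMR. No FcMR library overlapped with the isotype libraries. The log2 fold change was 0.76 (SE 0.0888 and edgeR adjusted p = 1.17e-05), a 1.69-fold higher level.

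At 12 h C3 was at 712, 649.9 and 643 CPM with isotype and at 715, 701 and 697 CPM with FcMR. The isotype libraries stood above those of 4 h, the groups overlapped and the difference was 0.08 (SE 0.0881 and edgeR adjusted p = 0.678). At 24 h isotype libraries were at 507, 463 and 504 CPM and FcMR libraries at 1026, 808 and 1067 CPM. The lowest FcMR library, replicate 2, still exceeded every isotype library, and the log2 fold change was 0.98 (SE 0.089 and edgeR adjusted p = 2.68e-07). Against untreated cells (273, 274 and 259.8 CPM) isotype-treated cells held more C3 at each time, by 0.71, 1.31 and 0.87 on the log2 scale at 4, 12 and 24 h, all called.

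The authors' normalized table departs from a plain library scaling for C3. Its factor for C3 in a library ran from 0.687 to 1.14 of that library's median factor, whereas for C1qa and C3ar1 it was never below 0.9999. With those factors in place of TMM the FcMR difference in C3 was 0.74 at 4 h and 1.24 at 24 h, both called, and the change from 4 h to 24 h was 0.50.

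The sequence ahead of C3 is shown because C3 was among the genes that rose. Its source and strand are as for C1q.
C3, chr17:57228137-57228386: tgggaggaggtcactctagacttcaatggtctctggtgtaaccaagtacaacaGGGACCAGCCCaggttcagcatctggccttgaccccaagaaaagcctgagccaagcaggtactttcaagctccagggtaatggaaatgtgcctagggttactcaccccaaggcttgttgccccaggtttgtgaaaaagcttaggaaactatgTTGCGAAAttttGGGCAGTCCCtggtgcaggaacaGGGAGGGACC
The capitals mark 3 places with the kappaB form, of which 2 match on both strands, and 1 match to TTGCNNAA (a loose form of the C/EBP motif, searched on both strands), TTGCGAAA, which does not overlap with them. TTGCNNAA occurred in 9.56% of the 250-base windows. Neither TTCNNNGAA (the GAS motif of STAT factors, 7.02% of windows) nor the ISRE motif of interferon-regulated genes (GAAA repeated after 2 free bases, 2.98%) occurred in this window, which says only that these letters are not in it.

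Cfb, the serine protease subunit of the alternative pathway convertase (chromosome 17, 34856374 to 34862518, minus strand), had the widest range of the 8 genes. Untreated libraries held 37.9, 32.1 and 26.1 CPM and FcMR 24 h libraries 4151, 3493 and 4485 CPM, a 126.2-fold ratio of the means. All 7 groups lay apart from their neighbours when ordered by mean, in the order untreated, isotype 4 h, FcMR 4 h, isotype 24 h, isotype 12 h, FcMR 12 h and FcMR 24 h. At 4 h Cfb was at 309, 279 and 324 CPM with isotype and at 729, 680.0 and 697 CPM with FcMR. The log2 fold change was 1.21 (SE 0.125 and edgeR adjusted p = 3.30e-06). Every FcMR library exceeded every isotype library, as at the later times.

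At 12 h isotype libraries held 1306, 1232 and 1460.3 CPM of Cfb and FcMR libraries 3113, 2915 and 3163 CPM. The log2 fold change was 1.20 (SE 0.124 and edgeR adjusted p = 1.91e-06), close to that at 4 h although the libraries of both groups lay above those of 4 h. At 24 h isotype libraries held 912, 825 and 1043 CPM, all below those of 12 h, while FcMR libraries were at their highest. The log2 fold change was then 2.13 (SE 0.127 and edgeR adjusted p = 1.60e-09). Isotype-treated cells held more Cfb than untreated cells, by 3.25 at 4 h, 5.38 at 12 h and 4.86 at 24 h on the log2 scale, all called. Time in culture and the isotype protein cannot be told apart here either. Gm20547, a gene model that overlaps Cfb on the same strand, had at most 1.003% as many counts as Cfb in any library.

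Per kilobase of exon, Cfb had the lowest mean level of the 8 genes in untreated cells (11.3 CPM per kilobase, against 353 for C1qb, the highest). It had the highest in FcMR 24 h cells (1431, against 188 for C3 and 37.6 for C1qb). In those FcMR 24 h cells C1qc was the lowest at 5.39 and C1qa next at 8.50 CPM per kilobase. In CPM, without the length, their order was reversed (C1qa 8.84 and C1qc 10.4). Over the 21 libraries C3 and Cfb correlated at r = 0.921 on log2 CPM and C1qb and Cfb at r = -0.854, as a description of libraries that share their groups.

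Properdin (Cfp, chromosome X, 20925454 to 20931555, minus strand), which stabilises the same convertase, was highest where Cfb was lowest, in untreated libraries, at 316, 251 and 258 CPM. At 24 h it was at 178, 155 and 149 CPM with isotype and at 109, 56.7 and 109 CPM with FcMR. The groups did not overlap, but the log2 difference of -0.82 (SE 0.291) had an edgeR adjusted p of 0.054 and was not called. It was called with RLE factors (adjusted p = 0.0464), with DESeq2 (0.0208) and with the GC correction (-0.72, 0.00835), and over 17 alternatives the adjusted p ran from 0.00835 to 0.23. The highest was without FcMR 24 h replicate 2, the lowest library, where the difference was -0.56. At 4 h (0.33, SE 0.289) and 12 h (-0.48, SE 0.288) the groups overlapped and edgeR adjusted p-values were 0.49 and 0.331. Isotype against untreated was called at 4 h (-0.79, edgeR adjusted p = 0.0423) and 24 h (-0.77, 0.0398). The 4 h call was lost in 5 and the 24 h call in 6 of the 6 fits that left out 1 library, with edgeR adjusted p-values up to 0.158 and 0.128. Without isotype 4 h replicate 3 the 4 h difference was -1.17 and called.

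C3ar1, the receptor for C3a (chromosome 6, 122847138 to 122856161, minus strand), showed the largest fall of the 8 genes with FcMR against isotype. At 24 h it was at 356, 329 and 323 CPM with isotype and at 51.5, 52.8 and 39.9 CPM with FcMR. The groups were far apart, with a log2 difference of -2.80 (SE 0.153 and edgeR adjusted p = 5.08e-10), a 6.97-fold lower level. The isotype level at 24 h was itself raised over untreated cells (68.6, 90.7 and 87.4 CPM) by 2.03 (SE 0.148 and edgeR adjusted p = 5.05e-09), while every FcMR 24 h library lay below every untreated library. At 12 h C3ar1 was at 121, 98.4 and 95.3 CPM with isotype and at 37.3, 28.2 and 27.1 CPM with FcMR, a log2 difference of -1.77 (SE 0.149 and edgeR adjusted p = 1.65e-07). The FcMR 12 h group was the lowest of all 7.

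At 4 h C3ar1 was at 109, 119 and 90.9 CPM with isotype and at 86.8, 84.6 and 89.4 CPM with FcMR. The FcMR libraries lay just below the isotype libraries, and the difference of -0.29 (SE 0.145 and edgeR adjusted p = 0.184) was not called. Its transcript is poor in GC (43.0%, percentile 12.6), unlike those of C1q. With the GC correction its difference was -2.91 at 24 h and -1.86 at 12 h.

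The sequence ahead of C3ar1 is shown because this gene fell most; its source and strand are as above.
C3ar1, chr6:122856162-122856407: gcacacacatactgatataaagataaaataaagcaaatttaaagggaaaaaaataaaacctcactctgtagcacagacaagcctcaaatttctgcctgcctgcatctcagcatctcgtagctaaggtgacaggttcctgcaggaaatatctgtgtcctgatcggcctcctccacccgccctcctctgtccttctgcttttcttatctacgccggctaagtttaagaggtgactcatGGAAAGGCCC
The only match of the 5 motifs in it is the kappaB form on the opposite strand, at the bases next to the gene, which is held by 45.8% of all windows. C3, which was higher with FcMR, and C3ar1, which was lower, both hold it.

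C5ar1, the receptor for C5a (chromosome 7, 16246743 to 16259540, minus strand), was called lower with FcMR at 24 h, and not at the earlier times. It was at 106, 99.7 and 93.5 CPM with isotype and at 40.2, 35.7 and 47.1 CPM with FcMR at that time. The groups lay apart with a log2 difference of -1.29 (SE 0.119 and edgeR adjusted p = 2.97e-07). At 12 h isotype libraries (40.2, 39.8 and 37.7 CPM) and FcMR libraries (39.0, 45.8 and 46.3 CPM) overlapped (0.16, SE 0.117, edgeR adjusted p = 0.458). At 4 h it was at 57.7, 55.6 and 70.6 CPM with isotype and at 74.9, 77.8 and 73.0 CPM with FcMR. Every FcMR library exceeded the isotype libraries, yet the difference of 0.30 (SE 0.118) had an edgeR adjusted p of 0.0954, against 0.0232 with DESeq2 and 0.0368 with RLE factors (0.00559 to 0.218 over 17 alternatives). Without isotype 4 h replicate 3 it was 0.41 and called. Against untreated cells (62.4, 75.5 and 81.2 CPM) isotype-treated cells held less C5ar1 at 12 h (-0.90, edgeR adjusted p = 7.17e-06) and more at 24 h (0.45, 0.00439).

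**Figure D3:**
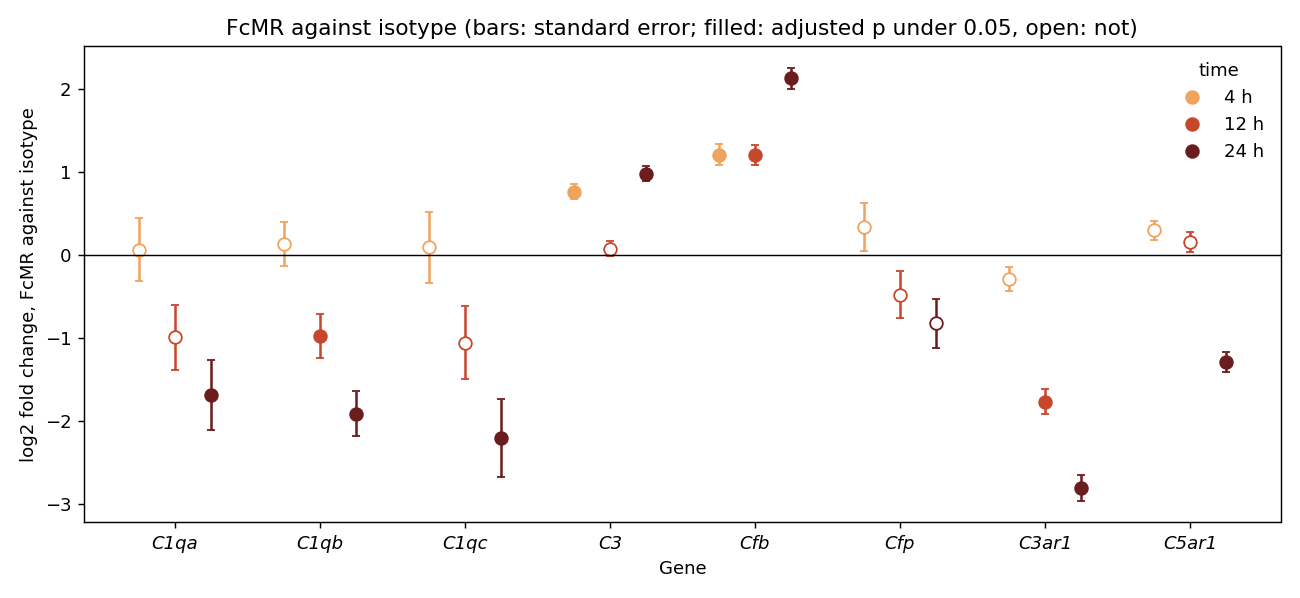
Log2 fold change of FcMR against isotype at 4, 12 and 24 h for each of the 8 genes, with bars of 1 standard error. Filled points passed an edgeR adjusted p of 0.05. Cfb is above 0 at every time, and C3ar1, C5ar1 and the C1q genes are at their lowest at 24 h.

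Whether the FcMR difference itself changed between the times was tested jointly. It did for 5 of the 8 genes, beside 11% of all genes (the difference moved up from 4 h to 24 h for 56.6% of these calls, and for 42.9% with RLE factors): C1qb, C3, C3ar1, C5ar1 and Cfb. From 4 h to 24 h the log2 difference moved by -2.51 for C3ar1 (edgeR adjusted p = 1.71e-06), by -1.59 for C5ar1 (9.16e-06), by -2.04 for C1qb (0.00484) and by 0.92 for Cfb (0.00187). For C3 the 4 h and 24 h differences were 0.22 apart and the 12 h difference was the low one (edgeR adjusted p = 0.000285). C1qa (edgeR adjusted p = 0.116), C1qc (0.0617) and Cfp (0.155) were not called. All 8 were called without the 3 libraries whose GC tilt stands apart, beside 2815 of 13723 genes, and with the GC correction, beside 2909 of 13468. Without isotype 4 h replicate 3 alone 8 were called, beside 2294 of 14020 genes, and 7 without FcMR 24 h replicate 3. Over all genes, leaving out each library gave 973 to 2294 calls. Without FcMR 12 h replicate 1, C1qc was also called (edgeR adjusted p = 0.0205).

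Isotype against untreated was called for 5 of the 8 genes at 4 h, 2 higher and 3 lower (35.6% of all genes, 20.4% higher and 15.2% lower). At 12 h it was called for 6, 2 higher and 4 lower (41.6% of all genes, 22% and 19.6%). At 24 h it was called for 8, 4 higher and 4 lower (42.2% of all genes, 21.3% and 20.9%). Higher were C3 and Cfb at every time and C3ar1 and C5ar1 at 24 h. Lower were C1qa and C1qb at every time, C1qc at 12 h and 24 h, Cfp at 4 h and 24 h, and C5ar1 at 12 h. At 4 h the count rested on single libraries: 8 of the 8 were called without isotype 4 h replicate 3 (with C3ar1 at 0.48, C5ar1 at -0.36 and C1qc newly called), 3 without untreated replicate 1, and 2 without untreated replicate 3 or isotype 4 h replicate 1 or 2. The calls over all genes moved as well, from 4792 in the main fit to between 3784 and 6251 when leaving out each library. All 8 were also called at 4 h without the 3 libraries whose GC tilt stands apart, beside 7364 of 13723 genes. Untreated cells were taken at 0 h only, so time in culture and the isotype protein cannot be told apart for any of these genes.

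The rest of the complement pathway was covered by a list of 42 other genes, of which 34 were in the table and 21 passed the filter. At 4 h 1 of the 21 was called with FcMR against isotype, lower, beside 17.7% of all genes. At 12 h 7 were called (3 higher, 4 lower), beside 16.1% of all genes, and at 24 h 10 (4 higher, 6 lower), beside 20.9%. Their median log2 fold change at 24 h was 0.01, as was that of all genes. Among the starting components, the C1 protease genes C1ra and C1s1 and the related C1rl were higher at 24 h, the opposite direction to C1q. C1ra was at 29.0, 27.7 and 36.3 CPM with isotype and at 80.1, 72.4 and 84.1 CPM with FcMR, a log2 difference of 1.35 (SE 0.121 and edgeR adjusted p = 2.13e-07). C1s1 was at 3.04, 1.72 and 2.19 CPM with isotype and at 30.2, 32.3 and 24.9 CPM with FcMR (3.64, SE 0.299, edgeR adjusted p = 7.43e-08). C1s1 and C1rl overlap antisense genes, and a near copy, C1s2, had 0 to 12 counts.

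C1rl was higher by 1.23 and Hc, which encodes C5 and also overlaps an antisense gene, by 1.29 at 24 h, and C1ra (0.44), C1rl (0.77) and Hc (1.28) also at 12 h. Hc stood at only 7 to 98 counts in these libraries and was not called with the authors' factors (0.66 at 24 h and 0.50 at 12 h, adjusted p = 0.51 and 0.688, the highest over 17 alternatives). Its 24 h call was also lost without FcMR 24 h replicate 2 or isotype 24 h replicate 1 or 3, and its 12 h call without FcMR 12 h replicate 1 (0.97) or isotype 12 h replicate 2 or 3. The 12 h call of C1ra was lost without FcMR 12 h replicate 3 or isotype 12 h replicate 1 or 2, with edgeR adjusted p-values up to 0.0936. Colec12, a scavenger receptor of the collectin family, was lower, with a log2 fold change of -1.56 at 24 h and -1.02 at 12 h.

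Among the other receptors, C5ar2, the second receptor for C5a, was lower at 24 h, and also at 12 h, where C5ar1 was not called. At 24 h it was at 6.28, 5.57 and 3.60 CPM with isotype and at 1.75, 0.955 and 0.488 CPM with FcMR (log2 fold change -2.28, SE 0.356, edgeR adjusted p = 0.000126). The FcMR libraries held only 4 to 26 counts of C5ar2 at 24 h and 9 to 13 at 12 h. The 12 h value of C5ar2 was -1.40 (edgeR adjusted p = 0.0133), a call lost without FcMR 12 h replicate 3 or isotype 12 h replicate 1 (adjusted p up to 0.0659). Cd93, a membrane glycoprotein first described as a C1q receptor, was called lower at 4 h (-0.52), 12 h (-1.22) and 24 h (-1.79). Its 4 h call was lost with no filter, with the compared groups alone, and without FcMR 4 h replicate 2 or 3 or isotype 4 h replicate 2 (-0.34), with edgeR adjusted p-values up to 0.127. The subunits of the C3 fragment receptors Itgam (-1.01), Itgb2 (-0.53) and Itgax (-0.22) were also called lower at 24 h, Itgam at 12 h too (-0.67, edgeR adjusted p = 0.0008), but for Itgb2 and Itgax the 24 h call was lost in 5 of the 6 fits that left out 1 library, with edgeR adjusted p-values up to 0.128 and 0.187. Itgam stands in the macrophage list and Itgax in the dendritic cell list above, and Itgam overlaps a gene model with 23 to 315 counts.

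**Figure D4:**
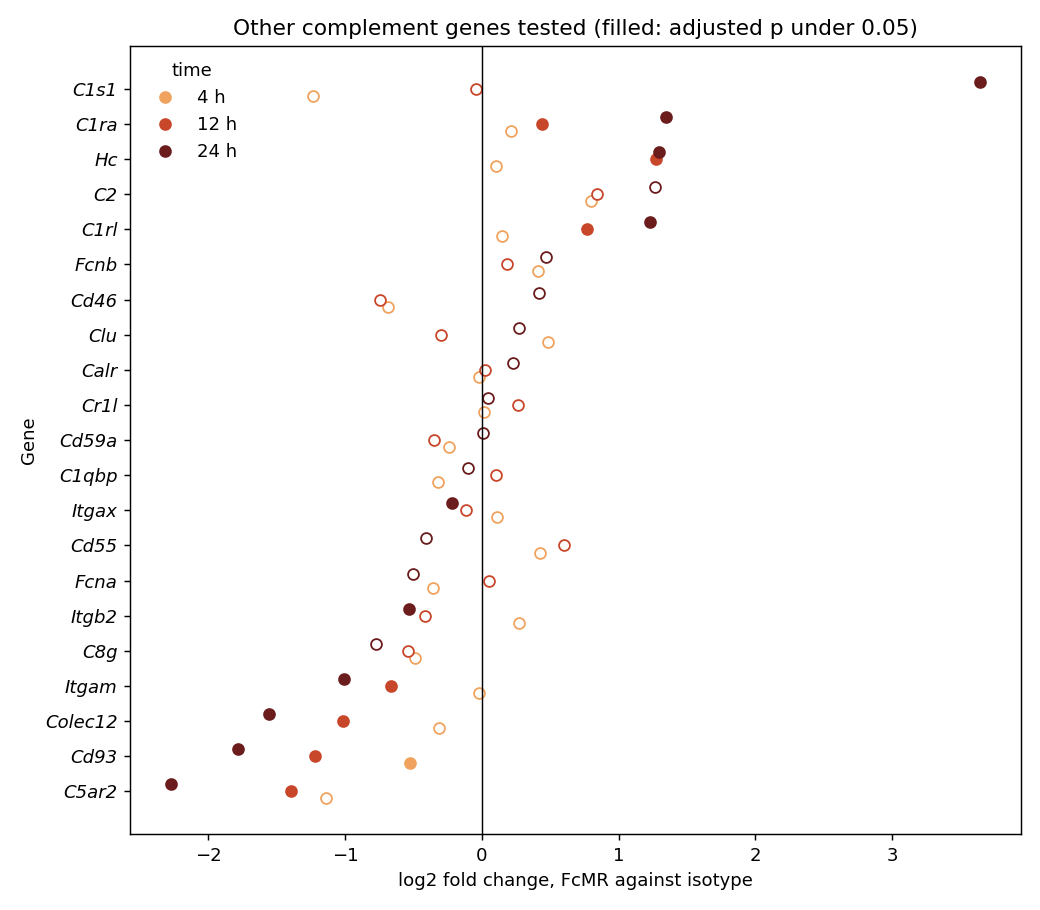
Log2 fold change of FcMR against isotype at 4, 12 and 24 h for the 21 other complement genes tested, ordered by the value at 24 h. Filled points passed an edgeR adjusted p of 0.05. C1s1, C1ra, Hc and C1rl are called higher at 24 h, and C5ar2, Cd93, Colec12, Itgam, Itgb2 and Itgax lower.

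For each of the 8 genes the most similar other genes were those with the highest Pearson correlation of log2 CPM over the 21 libraries, given as a description since the libraries share groups and depth. Cfb was followed most closely by Saa3 (r = 0.990) and Ms4a6d (r = 0.986), and C3 by Mmp2 (0.954) and Slc6a12 (0.951). Nearest to C1qa were Rpsa (0.969) and Ramp1 (0.963), to C1qb S100a6 (0.972) and Ramp1 (0.963), and to C1qc Metrnl (0.954) and Laptm5 (0.952). C3ar1 was nearest to Mamdc2 (0.970) and Rgs2 (0.948), and Cfp to Jup (0.967) and Nrros (0.956). C5ar1 had the least similar neighbours, Spp1 (0.865) and Rpl7l1 (0.863).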

How the data were processed

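Reads were 75 bp single-end from libraries made of 100 ng RNA, per the labels' protocols. The submitters' processing notes name CASAVA 1.8.2, kallisto 0.44.0, DESeq2 and the builds mm10 and GRCm38, without roles. The raw table the authors deposited was treated as estimated counts, since kallisto, named in the submitters' processing notes, gives these. Its values were whole, and rounding altered no value. The authors also deposited a normalized signal table, equal to the raw values divided by a factor per gene and library, used here only for those factors. No sample column was left unused (0). Estimated counts may move reads between near-identical genes.

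Gene names and GRCm38 positions come from GENCODE M21 (23206 of 23250 IDs had a symbol). edgeR 4.0.16 (R 4.3.3) fitted all 21 libraries with a coefficient per group, TMM factors and filterByExpr with a minimum count of 10. The quasi-likelihood test was used with Benjamini-Hochberg adjustment over 13468 genes and calls under 0.05. Values are CPM after TMM, with standard errors from the quasi-likelihood F. The joint test asks whether FcMR minus isotype was the same at 4, 12 and 24 h. Correlations used log2 CPM with a prior count of 2. The GC tilt used genes at or above 57.7% and at or below 42.3% GC.

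The 8 genes are named throughout, as are other complement genes called with FcMR against isotype, and the 2 nearest genes of each. The 8 genes and all lists were chosen with earlier results of these data known. One gene of the pathway list was left out before counting and is not reported here. Marker lists covered macrophages, dendritic cells, neutrophils and precursors, mast cells and basophils (4 markers, 6.11 to 33.4 CPM in sum), B cells, T and NK cells, stromal, liver and red cells (3 markers, at most 23.6 CPM).

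Alternatives were RLE factors, no filter, DESeq2 1.42.0, a filter on a mean count of 10, the authors' factors as offsets, a correction for GC in 20 bins, the replicate number as a block, the block with GC correction, the compared groups alone, leaving out both libraries that stand out of title order (FcMR 12 h replicate 1 and isotype 4 h replicate 3), and leaving out each library. Leaving out the 3 libraries whose GC tilt stands apart was added after seeing the data. Replicate libraries differed by more than counting error (2.98 to 66.3 in chi-square over its degrees of freedom), so each library counted as 1. The edgeR script was tested on simulated data over 13192 genes. For the 24 h comparison it recovered 58.6% of 99 genes changed 2-fold and 90.0% of 100 changed 4-fold. The joint test recovered 39.4% and 82% of them. Counts were drawn for each gene apart, so a GC tilt shared by the genes of a library was not simulated.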

Additional observations from a re-analysis of the deposited data

Results flagged for a closer look

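The FcMR difference changed between 4, 12 and 24 h, by the joint edgeR test of the difference itself, for 5 of the 8 genes and 6 of the 21 other complement genes tested, beside 11% of all genes. Adjusted p-values among the 8 genes were 0.00484 for C1qb, 0.000285 for C3, 1.71e-06 for C3ar1, 9.16e-06 for C5ar1 and 0.00187 for Cfb. From 4 h to 24 h the difference fell for C1qb, C3ar1 and C5ar1 and rose for Cfb, while for C3 it was near 0 at 12 h only. Of the other complement genes it rose for C1ra (edgeR adjusted p = 0.000605), C1rl (0.0249) and C1s1 (7.70e-06). It fell for Colec12 (0.000156), Itgam (0.00299) and Cd93 (0.000934). The C1rl call was lost under 12 of 29 alternatives, with adjusted p-values up to 0.0819.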

How the results depend on the processing

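For FcMR against isotype at 24 h, C1qa, C1qb, C1qc, C3, C3ar1, C5ar1 and Cfb stayed called in the same direction under all 17 alternatives, and so did C3 and Cfb at 4 h and C3ar1 and Cfb at 12 h. Over all results of the 8 genes, 26 alternative values lost a call, 80 gained one and 6 changed sign, the last all for C1q at 4 h when a library was left out (C1qa 0.76 to -0.225, C1qb 0.45 to -0.085, C1qc 0.89 to -0.22, with single values of -0.059 for C1qa and -0.019 and -0.063 for C1qc). The cause of these moves was not tested.

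At 4 h, 2390 genes were called for FcMR against isotype (1161 higher, 1229 lower), 3670 with GC correction (2161 higher), 3854 with the replicate block and GC correction (2263 higher), 868 with the compared groups alone (628 higher), 3898 without both libraries out of title order and 4999 without the 3 libraries whose GC tilt stands apart. With the last 2 settings 7 and 8 of the 8 genes were called, and leaving out each library gave 1589 to 3151 genes and 2 to 3 of the 8. At 12 h 2169 genes became 3321 with GC correction and 3498 with the replicate block and GC correction, and 5 of the 8 were called under both and without the 3 libraries; leaving out each library gave 1570 to 1841 genes and 2 to 3 of the 8. For isotype against untreated at 4 h 4792 genes became 2881 with the compared groups alone (2 of the 8) and 7364 without the 3 libraries (8 of the 8), and 8 were called without both libraries out of title order; leaving out each library gave 3784 to 6251 genes and 2 to 8 of the 8. For the joint test 1484 genes became 925 with no filter, 2909 with GC correction, 3131 with the replicate block and GC correction, 2616 without both libraries out of title order and 2815 without the 3 libraries, with 8 of the 8 called under each but the first; leaving out each library gave 973 to 2294 genes and 5 to 8 of the 8.

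Replicate numbers are shared by the groups, but the mean correlation of same-numbered libraries was -0.07, 0.11 and 0.01 for FcMR against isotype at 4, 12 and 24 h. The numbers were therefore not taken as pairs. Yet 12 of 21 libraries correlated best with their own number. For isotype against untreated at 4 h the correlations of numbers 1 to 3 were -0.16, 0.34 and 0.09. Whether same-numbered libraries share a source was not tested. With the replicate block C1qc (-1.22, adjusted p = 0.0315) and C3ar1 (0.36, 0.0489) were called for isotype against untreated at 4 h and C1qc in the joint test (0.0387), and no other call of the 8 genes changed. The median of all genes moved by over 0.1 on the log2 scale only at 4 h with no filter. For FcMR against isotype it went from -0.07 to 0.04. For isotype against untreated it went to -0.12, and the share of higher among the calls went from 57.2% to 45.5%. That share moved by over 10 points too for FcMR against isotype at 4 h (48.6%, against 62.7% with RLE factors, 64.4% with DESeq2, 67.2% with the authors' factors and 75.2% with no filter) and for the joint test (56.6%, against 42.9%, 42.5%, 40.1% and 36.1%).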
